A study of Mus musculus with 18 samples.

Results

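The genes of the mitochondrial ribosomal proteins were followed in mouse cortex after stroke. They were taken as every entry whose symbol starts with Mrpl or Mrps and a digit, which gave 82 of the 37319 genes in the table. Of these, 51 encode proteins of the large subunit of the mitochondrial ribosome, Mrps30 and Mrps18a included, and 26 encode proteins of the small subunit. The remaining entries were Mrps36, which is now known as a component of the ketoglutarate dehydrogenase complex, and 4 pseudogenes. RNA-seq was done on the cortex of the injured hemisphere. The animals were C57BL/6J males, 8 to 10 weeks old, with a body weight of 24 to 26 g. Every mouse had received an adeno-associated virus (AAV) in the left lateral ventricle, with a short hairpin RNA under the synapsin promoter, which is active in neurons, and 4 weeks later had sham surgery or transient occlusion of the middle cerebral artery (tMCAO). The hairpin was directed against Tiparp (arm T) or was a scramble control (arm C). The 18 libraries formed 6 groups of 3: Sham_T and Sham_C after sham surgery, R24h_T and R24h_C at 24 h after tMCAO, and R28d_T and R28d_C at 28 d. A bulk library pools all cells of the piece, so that fewer cells of a type and less RNA per cell cannot be told apart, and a neuronal promoter limits the hairpin largely to neurons.

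Mitochondria keep their own ribosomes, which translate the few respiratory chain proteins encoded by mitochondrial DNA. The 2 ribosomal RNAs, mt-Rnr1 of the small subunit and mt-Rnr2 of the large subunit, are transcribed in the organelle, whereas all of the ribosomal proteins are encoded in the nucleus, made in the cytosol and imported. Some of the proteins have a counterpart in the bacterial ribosome (29 of the large and 16 of the small subunit genes measured here) and the others were gained in evolution after the bacterial ancestor. The promoters of such genes are known as targets of NRF1, of ETS factors such as GABP, and of YY1.

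Mrps6 had the largest difference at 24 h, and Mrpl45 had the smallest adjusted p at 24 h over both arms. The libraries of Mrpl43 at 24 h and after sham surgery did not overlap, and Mrpl12 was the second most abundant member. For these 4 genes, chosen by response or by level, the 250 bases before the transcription start are shown. They are RefSeq promoters of build GRCm38.p6 (chr16:92058086-92058335, plus strand, for Mrps6, chr11:97315466-97315715, plus strand, for Mrpl45, chr19:45006443-45006692, minus strand, for Mrpl43 and chr11:120484387-120484636, plus strand, for Mrpl12). Capitals mark matches on either strand to CCGGAAG (ETS), GCGCA, any base and GCGC in a row (NRF1), AANATGGCG (YY1) or GGGCGG (SP1).
Mrps6: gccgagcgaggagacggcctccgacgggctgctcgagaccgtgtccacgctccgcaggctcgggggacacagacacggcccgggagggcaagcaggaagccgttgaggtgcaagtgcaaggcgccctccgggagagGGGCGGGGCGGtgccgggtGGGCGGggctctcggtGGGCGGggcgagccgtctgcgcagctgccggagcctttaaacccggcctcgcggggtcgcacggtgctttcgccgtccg
Mrpl45: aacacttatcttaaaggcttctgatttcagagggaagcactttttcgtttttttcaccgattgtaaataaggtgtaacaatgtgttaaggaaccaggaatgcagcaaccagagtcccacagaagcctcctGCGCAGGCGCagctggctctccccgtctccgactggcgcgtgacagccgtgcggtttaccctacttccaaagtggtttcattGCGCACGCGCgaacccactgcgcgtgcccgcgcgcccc
Mrpl43: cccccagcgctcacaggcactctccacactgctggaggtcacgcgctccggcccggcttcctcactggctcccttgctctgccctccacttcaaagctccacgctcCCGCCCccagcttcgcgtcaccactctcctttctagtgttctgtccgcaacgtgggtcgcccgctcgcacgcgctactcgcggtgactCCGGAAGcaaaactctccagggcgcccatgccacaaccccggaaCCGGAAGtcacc
Mrpl12: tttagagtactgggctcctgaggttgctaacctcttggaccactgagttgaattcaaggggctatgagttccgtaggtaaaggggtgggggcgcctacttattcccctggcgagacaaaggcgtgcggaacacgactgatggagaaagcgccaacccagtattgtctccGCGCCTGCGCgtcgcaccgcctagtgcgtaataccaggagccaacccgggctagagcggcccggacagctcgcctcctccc
The Mrps6 stretch held 4 matches to the SP1 letters, with 1 base lying in more than 1 match, and none to the other 3 motifs. The Mrpl45 stretch held 2 matches to the NRF1 letters, the Mrpl12 stretch held 1, and the Mrpl43 stretch held 2 to the ETS letters and 1 to the SP1 letters. In windows from 250 bases before to 50 after the start, available for 68 of the 77 subunit genes (the first window for the 3 with several), the ETS letters were found in 36.8% of the subunit genes and in 9.12% of all 27025 genes with a window. The NRF1 letters were found in 19.1% of the subunit genes and in 4.78% of all genes. The YY1 letters were in 16.2% against 2.51%, and the SP1 letters in 48.5% against 35.9%. The set of all genes was not matched to the subunit genes for the base content of the promoters. A match of letters shows neither a bound site nor a cause.

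All 77 subunit genes were detected, and their level in FPKM (fragments scaled to transcript length and to the size of the library) differed 28.9-fold from gene to gene. The mean of the 6 sham libraries ran between 1.14 FPKM for Mrpl33 and 32.9 FPKM for Mrpl41, with a median of 7.44 FPKM and an interquartile range of 3.55 to 12.1 FPKM. Large subunit genes had a median sham level of 7.83 FPKM and small subunit genes one of 6.35 FPKM. Mrpl41 averaged 32.9 FPKM in sham cortex, Mrpl12 averaged 21.9 FPKM and Mrpl10 averaged 18.1 FPKM. Mrpl12 and Mrpl10 belong to the stalk that recruits translation factors to the large subunit. The 18 libraries spanned 19.6 to 31.6 FPKM for Mrpl12 and 14.5 to 23.1 FPKM for Mrpl10, so that the ranges of these neighbours in the order overlapped. The rank order of the genes was nearly kept between conditions, with a Spearman correlation across the 77 genes of 0.968 between the means at 24 h and after sham surgery and of 0.994 between 28 d and sham. The genes are not independent replicates, and these correlations describe the order only.

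**Figure D1:**
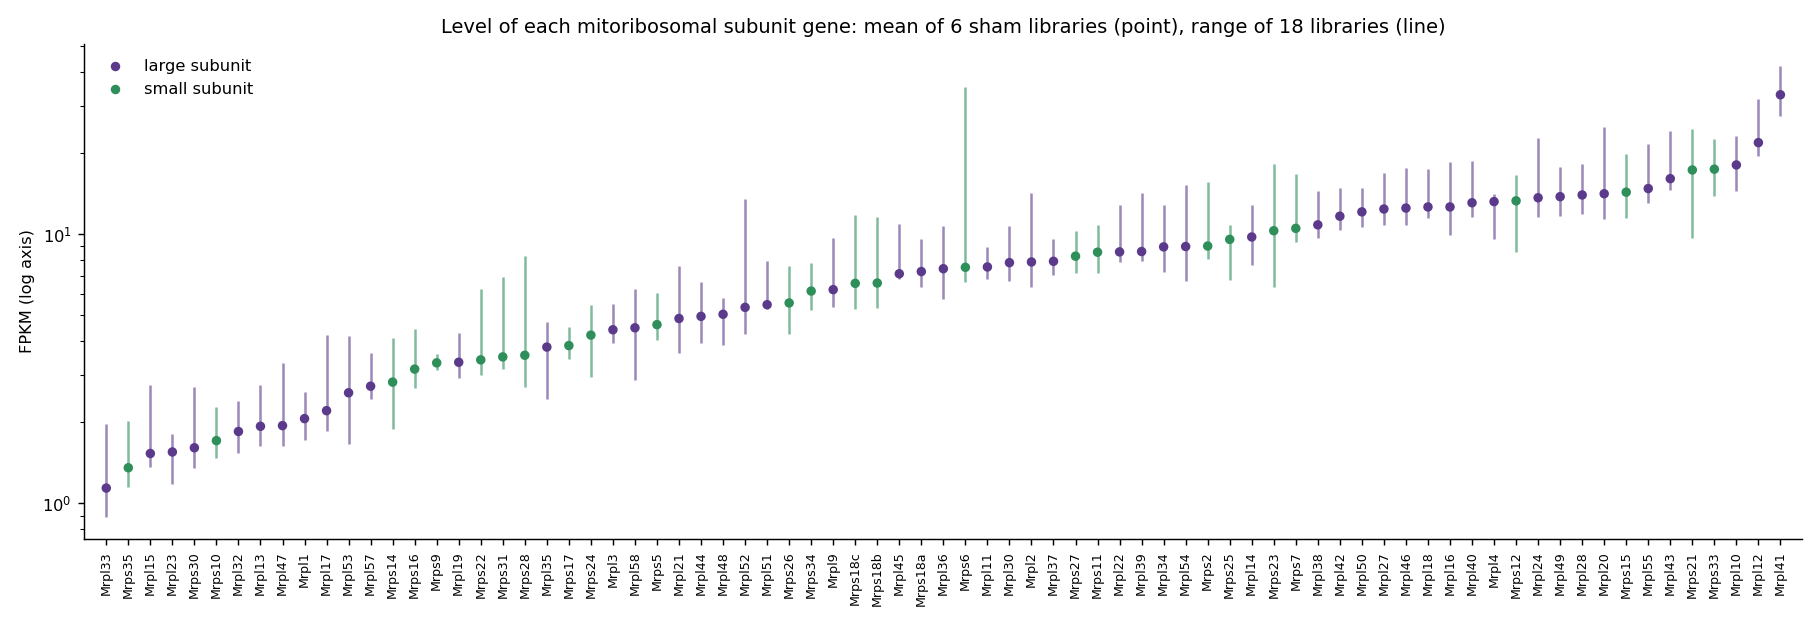
FPKM (log axis) of the 77 subunit genes, ordered by the mean of the 6 sham libraries. Points are the sham means, lines the range over all 18 libraries, and colours the subunit. Mrpl33 lies lowest at 1.14 FPKM and Mrpl41 highest at 32.9 FPKM, and the line of Mrps6 reaches furthest above its sham mean.

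The pseudogenes were counted apart. Mrpl48-ps had sham means of 0.34 FPKM, Mrps36-ps2 of 0.44 FPKM and Mrps36-ps1 of 0.05 FPKM, and these 3 did not reach the 1 FPKM in 3 libraries that a test required. Mrpl23-ps1 was at 8.23 to 14.7 FPKM over the 18 libraries, whereas Mrpl23 itself was at 1.18 to 1.81 FPKM. The names mark a gene and a copy of it, so that reads may have been shared between them, and the values of both are uncertain. The tests below thus cover 79 entries in every comparison: the 77 subunit genes, Mrps36 and Mrpl23-ps1. Apart from Mrpl33, which reached 1 FPKM in 16 libraries, each of the 79 reached it in all 18.

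Several facts of the series bear on what follows. Tiparp was at 3.99, 5.00 and 3.01 FPKM in R24h_T, against 6.66, 4.60 and 8.65 FPKM in R24h_C, a log2 difference of -0.60 (adjusted p = 0.668), and the arms did not differ beyond the spread after sham surgery (0.06, adjusted p = 0.817) or at 28 d (0.00, adjusted p = 1). It was at 4.17, 4.95 and 4.57 FPKM in Sham_T, against 4.45, 4.76 and 3.77 FPKM in Sham_C, and at 3.97, 4.06 and 3.72 FPKM in R28d_T, against 4.46, 3.59 and 3.78 FPKM in R28d_C, with overlap at each stage. A lower Tiparp level in arm T was thus not detectable in these bulk libraries, and the arms are named by their labels alone. All 8 neuronal and all 7 cortical excitatory markers listed were found, none of them below 0.1 FPKM in all libraries. The injured libraries were uneven. Spp1, an injury-induced secreted protein, stood at 162, 337 and 11.5 FPKM in R24h_T1 to R24h_T3 and at 666, 216 and 703 FPKM in R24h_C1 to R24h_C3, against 3.00 to 6.77 FPKM in the 6 sham libraries. R24h_T3 thus stood nearest to the sham libraries in this gene. R24h_C3 held 1682 FPKM of Ttr, a choroid plexus gene, 13.4 FPKM of the striatal marker Drd1 and 42.6 FPKM of the cortical marker Slc17a7, against 108 and 143 FPKM of Slc17a7 in R24h_C1 and R24h_C2. Ttr was also at 501 and 624 FPKM in Sham_T2 and Sham_T1 and at 712 FPKM in R28d_T2. Genes of the mitochondrial genome took between 29.2% and 41.7% of the summed FPKM of a library, and that share enters every other FPKM.

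At 24 h over both arms, 15 of the 79 entries were higher than after sham surgery and 0 were lower in a fit on log2(FPKM + 1) with limma (Benjamini-Hochberg adjusted p under 0.05 over all genes). That is 19.0% of the entries, while 19.3% of the 14589 genes tested were higher and 5.38% were lower. The share called higher was therefore that of genes at large. The median log2 difference of the entries was 0.18, against 0.10 over all genes tested, and 68 of the 79 had a positive difference. Here and below, the share of all genes with a difference of the same sign was not counted. The libraries at 24 h lay above all sham libraries for 6 entries, which is 7.59% of them, against 8.19% of all genes tested, and below them for 0, against 1.93%. Without R24h_T3, 22 entries were higher (28.1% of all genes), and without R24h_C3 there were 7 (15.6%). The calls also fell to 8 (12.4% of all genes), 5 (11.7%) and 6 (12.3%) without Sham_C1, Sham_C2 and Sham_C3, to 5 (11.1%) without R24h_C1, to 6 (13.9%) without R24h_T2 and to 10 (14.7%) without Sham_T3, so that calls over all genes fell with them. The fold changes were small: 3 entries passed 0.5 on the log2 scale, namely Mrps6, Mrpl52 and Mrps28.

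Mrps6, a small subunit protein with a bacterial counterpart, had the largest difference. It was at 13.0, 27.9 and 11.9 FPKM in R24h_T, against 7.99, 7.96 and 7.03 FPKM in Sham_T. In the control arm it was at 26.7, 15.0 and 35.1 FPKM in R24h_C, against 8.17, 7.35 and 6.65 FPKM in Sham_C. All 6 libraries at 24 h lay above all 6 sham libraries. The log2 difference was 1.30 ± 0.23 (SE, adjusted p = 0.00311) over both arms, 1.004 ± 0.289 in arm T (adjusted p = 0.218) and 1.59 ± 0.28 in arm C (adjusted p = 0.0143). On the annotation (GENCODE M21, GRCm38) the Mrps6 gene model overlaps that of Slc5a3, the myo-inositol transporter, on the same strand, and the RefSeq starts of the 2 genes lie 14 bases apart, so that 286 bases of their promoter windows are the same. Slc5a3 was at 2.60, 4.14 and 1.78 FPKM in R24h_T, against 1.22, 1.12 and 1.53 FPKM in Sham_T, and at 3.72, 2.23 and 4.78 FPKM in R24h_C, against 0.915, 0.909 and 0.879 FPKM in Sham_C. Its log2 difference was 0.96 ± 0.17 over both arms (adjusted p = 0.00333) and 1.23 ± 0.21 in arm C (adjusted p = 0.0124). Both genes were highest in R24h_C3 and lowest of the 24 h libraries in R24h_T3. Reads of the shared part may have been counted for either gene, so that the value of Mrps6 is uncertain.

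Mrpl45, a large subunit protein that lies near the polypeptide exit, had the smallest adjusted p. It was at 10.9, 10.7 and 8.93 FPKM in R24h_T, against 7.06, 6.93 and 7.09 FPKM in Sham_T, and at 10.2, 8.82 and 9.77 FPKM in R24h_C, against 7.57, 6.80 and 7.28 FPKM in Sham_C. The groups did not overlap in either arm. The log2 difference was 0.42 ± 0.07 over both arms (adjusted p = 0.00227), 0.47 ± 0.12 in arm T (adjusted p = 0.178) and 0.37 ± 0.09 in arm C (adjusted p = 0.0329). It was the entry with the highest value in arm T relative to arm C at 24 h, with 0.07 (adjusted p = 0.898).

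The 15 entries that rose over both arms were 9 of the 51 large subunit genes and 6 of the 26 small subunit genes. Mrpl20, a large subunit protein with a bacterial counterpart, was at 17.0, 22.6 and 16.2 FPKM in R24h_T, against 16.0, 14.1 and 15.5 FPKM in Sham_T, and at 23.2, 17.2 and 25 FPKM in R24h_C, against 14.2, 11.4 and 13.4 FPKM in Sham_C. Its log2 difference over both arms was 0.47 ± 0.12 (adjusted p = 0.0187). Mrpl43 was at 17.3, 24.1 and 17.3 FPKM in R24h_T, against 16.9, 16.9 and 16.5 FPKM in Sham_T, and at 23.2, 19.9 and 21.7 FPKM in R24h_C, against 15.9, 14.6 and 15.5 FPKM in Sham_C. In both genes the lowest libraries at 24 h were in arm T and lay just above the highest sham library. Mrpl43 differed by 0.33 ± 0.09 (adjusted p = 0.0265), and its gene model overlaps that of Twnk, the mitochondrial DNA helicase, on the opposite strand. Mrpl55 differed by 0.32 ± 0.08 (adjusted p = 0.0159) without overlap of the libraries, Mrpl39 by 0.44 ± 0.11 (adjusted p = 0.0124), Mrps31 by 0.42 ± 0.12 (adjusted p = 0.0223) and Mrpl51 by 0.28 ± 0.08 (adjusted p = 0.0296). Mrpl22, Mrps18b, Mrps28, Mrps22, Mrpl52, Mrpl17 and Mrps7 made up the rest. Of the 15 calls, 4 were kept under all 18 alternatives tried, namely Mrps6, Mrpl45, Mrpl20 and Mrpl39.

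Some members stood at or below their sham level. Mrpl4, a large subunit protein with a bacterial counterpart, was at 12.2, 11.3 and 9.60 FPKM in R24h_T, against 12.6, 13.9 and 12.4 FPKM in Sham_T, and at 12.1, 12.2 and 12.8 FPKM in R24h_C, against 13.2, 12.9 and 14.1 FPKM in Sham_C. The 24 h libraries lay below the sham libraries of the same arm in both arms, yet the log2 difference of -0.17 ± 0.07 did not pass (adjusted p = 0.106). Mrps25 had a log2 difference of -0.18 ± 0.09 (adjusted p = 0.188) and Mrps33 one of -0.10 ± 0.10 (adjusted p = 0.459), and Mrpl23, Mrps24 and Mrpl48 lay between -0.07 and -0.04. Median-ratio scaling, which brought the median of all genes to 0.01 where it was 0.10 as deposited, left 5 entries higher (Mrpl20, Mrpl39, Mrpl45, Mrps31 and Mrps6) and put 2 lower, Mrpl4 and Mrps25, while 12.7% of all genes were then higher and 9.14% lower.

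**Figure D2:**
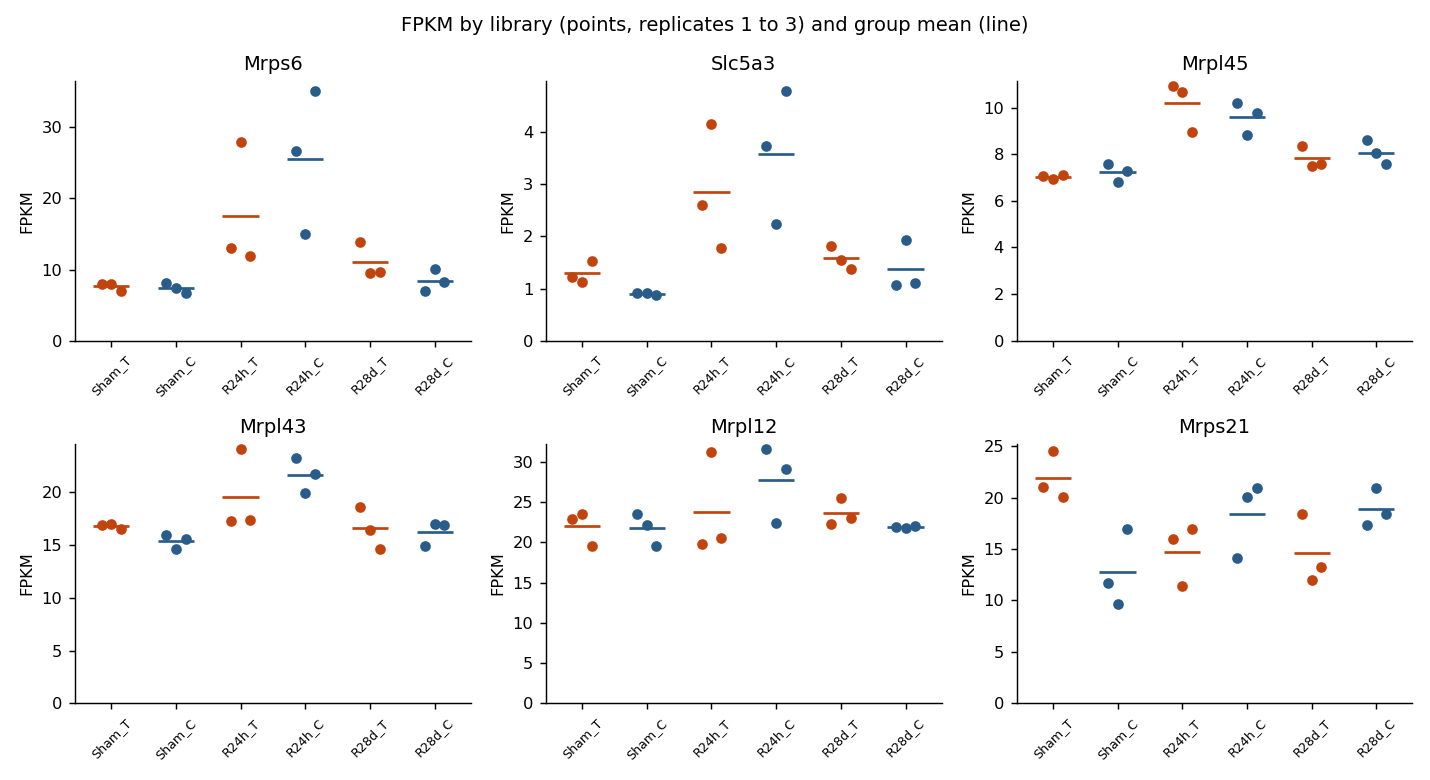
FPKM in each library (points) and group means (lines) for Mrps6, its overlapping neighbour Slc5a3, Mrpl45, Mrpl43, Mrpl12 and Mrps21, with arm T in red and arm C in blue. Mrps6 and Slc5a3 share the order of the libraries at 24 h in arm C, Mrpl45 at 24 h lies between 8.82 and 10.9 FPKM in both arms, and the Mrps21 libraries of Sham_T all lie above those of Sham_C.

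In the control arm more entries were called. At 24 h, R24h_C exceeded Sham_C in 21 of the 79 entries and was lower in 0, which is 26.6% of the entries, while 19.8% of all 13880 genes tested were higher and 4.24% were lower. The median log2 difference was 0.30, against 0.13 over all genes tested, and 76 entries were positive. All 3 libraries of R24h_C lay above all 3 of Sham_C for 50 entries (63.3%), against 36.1% of all genes tested, and below them for 1, Mrpl4, against 11.8% of all genes tested. In every comparison overlap was judged on FPKM as deposited, and it was not counted again after scaling. The calls were 12 of 51 large subunit genes, 8 of 26 small subunit genes and Mrps36. The large subunit genes had a median of 0.33 and the small subunit genes one of 0.23, and genes with a bacterial counterpart had one of 0.33, against 0.26 for those without. These medians differ by less than the interquartile range within each class, which ran for the large subunit between 0.19 and 0.42.

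Mrps6 led again, followed in size by Mrpl52, whose level was 11.5, 7.45 and 13.5 FPKM in R24h_C, against 6.03, 4.41 and 4.25 FPKM in Sham_C, a log2 difference of 0.98 ± 0.22 (adjusted p = 0.0248). The 2 highest libraries were R24h_C1 and R24h_C3. Mrpl27, a large subunit protein with a bacterial counterpart, was more even, with 16.8, 15.8 and 16.1 FPKM in R24h_C, against 11.4, 11.9 and 11.7 FPKM in Sham_C (0.44 ± 0.08, adjusted p = 0.0147). In the other arm Mrpl27 was at 12.1, 13.1 and 13.3 FPKM in R24h_T, against 12.8, 13.6 and 12.8 FPKM in Sham_T. Mrpl16 differed in the control arm by 0.59 ± 0.11 (adjusted p = 0.0158), Mrpl43 by 0.46 ± 0.09 (adjusted p = 0.0190), Mrpl39 by 0.55 ± 0.11 (adjusted p = 0.0197) and Mrps7 by 0.48 ± 0.11 (adjusted p = 0.0230). Of the calls in arm C, 12 were also called over both arms, and the 9 others were Mrpl9, Mrpl10, Mrpl13, Mrpl16, Mrpl27, Mrpl30, Mrps14, Mrps18c and Mrps36. The comparisons share the libraries of arm C.

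The number of calls in the control arm changed with single libraries, for all genes as for the members. Without R24h_C2, the library with the smallest member response, 44 entries were called higher (27.5% of all genes tested), without R24h_C3 there were 8 (11.4%), and without Sham_C1 there was 1, Mrpl39 (5.04%). There were 0 without R24h_C1 (1.96% of all genes), Sham_C2 (3.71%) or Sham_C3 (4.93%), with 29, 28 and 26 entries at an unadjusted p under 0.05. Here and below, the share of all genes at that unadjusted cut was not counted. Such counts can therefore not be set against genes at large. The median difference stayed between 0.26 and 0.37 in these fits. With median-ratio scaling, 9 entries were higher (11.6% of all genes) and the median was 0.16, against 0.00 over all genes tested.

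**Figure D3:**
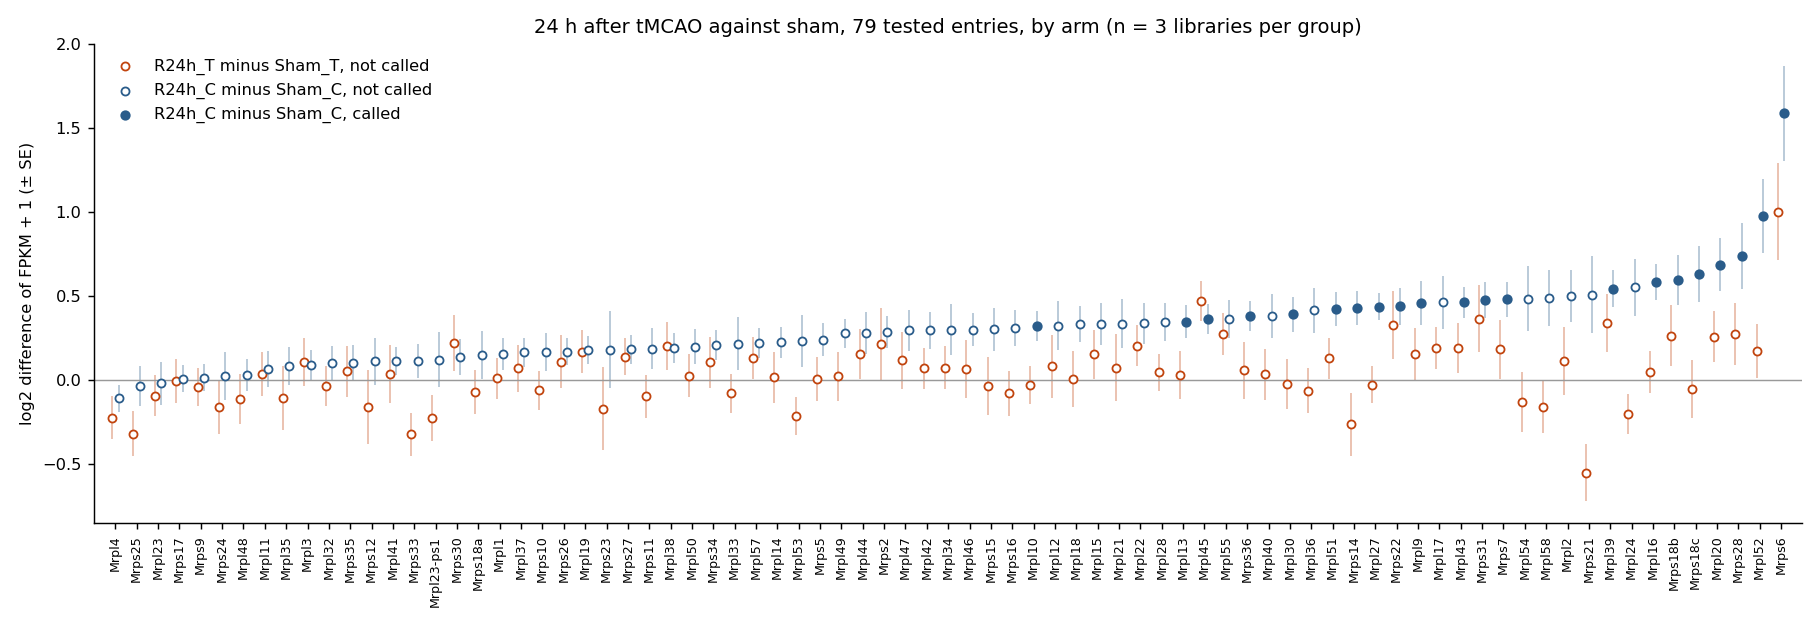
Log2 difference of FPKM + 1 (± SE) between 24 h and sham for the 79 tested entries, ordered by arm C, with arm T in red, arm C in blue and filled points for calls. The 21 calls are all in arm C and above 0, Mrps6 lies highest in both arms, and Mrps21 has the lowest value in arm T.

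In the arm with the Tiparp hairpin, R24h_T and Sham_T differed beyond the threshold in 0 entries in either direction, with 5 at an unadjusted p under 0.05 and a smallest adjusted p of 0.178. Few genes of any kind were called there, 0.133% higher and 0.0888% lower of 13509 genes tested. The median of the entries was 0.04, against 0.06 over all genes tested, and after median-ratio scaling it was -0.02. R24h_T lay above Sham_T without overlap for 7 entries (13.9% of all genes tested) and below it for 6 (8.28%). Without R24h_T3, 1 entry, Mrpl45, was called higher (4.33% of all genes tested).

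**Figure D4:**
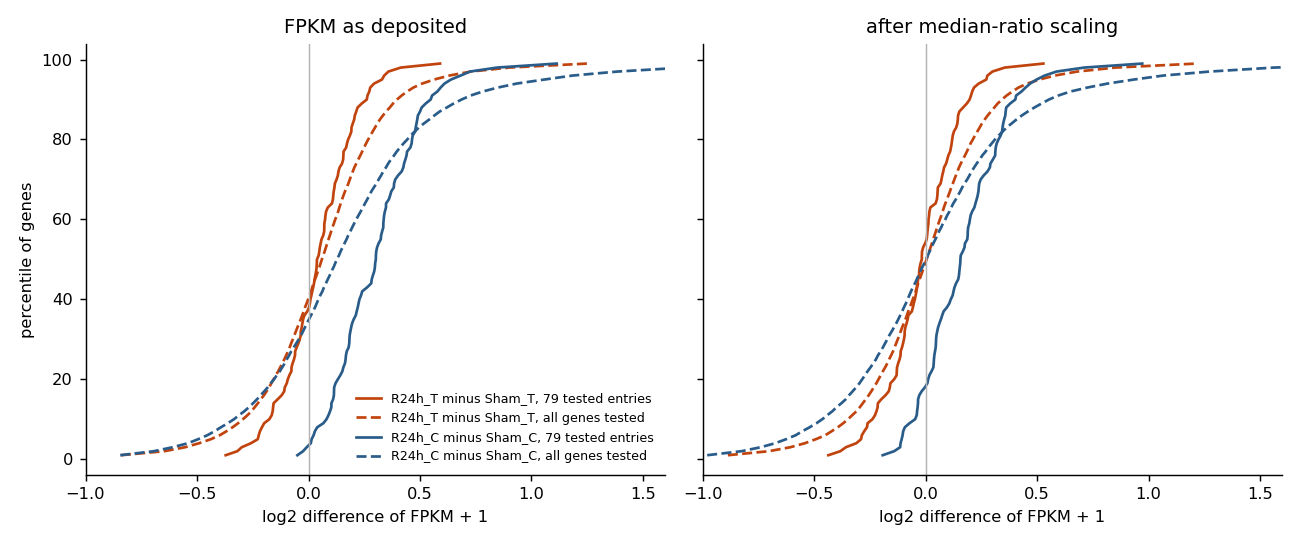
Percentile (vertical) of the log2 difference of FPKM + 1 (horizontal) between 24 h and sham for the 79 tested entries (solid) and all genes tested (dashed), with arm T in red and arm C in blue, as deposited (left) and after median-ratio scaling (right). The solid blue line crosses the 50th percentile at 0.30 as deposited and at 0.16 after scaling, and the solid red line at 0.04 and -0.02.

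The libraries at 24 h differed within each arm. Relative to the mean of the 6 sham libraries, the median deviation of the members on the log2 scale was -0.02, 0.25 and 0.00 in R24h_T1 to R24h_T3 and 0.33, 0.13 and 0.34 in R24h_C1 to R24h_C3. In the sham libraries it lay between -0.01 and 0.09 in Sham_T and between -0.06 and 0.01 in Sham_C. The summed FPKM of all 82 entries, the untested pseudogenes included, was 649, 788 and 642 in R24h_T and 845, 715 and 870 in R24h_C, against 639 to 694 in Sham_T and 600 to 645 in Sham_C. R24h_C1, R24h_C3 and R24h_T2 were thus the 3 highest libraries of the series, and R24h_T1 and R24h_T3 lay within the sham range. The sum of the small over that of the large subunit genes was 0.391 to 0.445 in R24h_T and 0.424 to 0.446 in R24h_C, against 0.417 to 0.453 in Sham_T and 0.413 to 0.427 in Sham_C.

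Markers of injury and of cells were compared with the same libraries. The 3 libraries with the highest Spp1 of all 18 were also R24h_C3, R24h_C1 and R24h_T2. The summed level of 5 of 5 endothelial markers found was 10.4 to 44.4 FPKM in R24h_T and 18.1 to 41.4 FPKM in R24h_C, against 3.72 to 4.53 FPKM in Sham_T and 4.31 to 4.88 FPKM in Sham_C. The sum of 9 of 9 microglia and macrophage markers was 95.9 to 188 FPKM in R24h_T and 114 to 242 FPKM in R24h_C, against 65.2 to 68.3 FPKM in Sham_T and 63.7 to 65.2 FPKM in Sham_C. The sum of 8 of 8 neuronal markers was 1057 to 1511 FPKM in R24h_T and 625 to 1300 FPKM in R24h_C, against 1256 to 1363 FPKM in Sham_T and 1375 to 1423 FPKM in Sham_C. The sum of 7 of 7 astrocyte markers was 609.5 to 696 FPKM in R24h_T and 740 to 898 FPKM in R24h_C. After sham surgery it was 512 to 625 FPKM in Sham_T and 553 to 605 FPKM in Sham_C. The sum of 6 of 6 oligodendrocyte markers was 230 to 413 FPKM in R24h_T and 263.5 to 601.5 FPKM in R24h_C. In sham libraries it was 409 to 562.5 FPKM in Sham_T and 352 to 422 FPKM in Sham_C. No marker of these lists was below 0.1 FPKM in all libraries. The sums hide single markers: over both arms at 24 h, 5 of 5 endothelial, 6 of 9 microglial and 2 of 8 neuronal markers had a positive difference. So did 4 of 7 astrocyte and 2 of 6 oligodendrocyte markers. In arm T alone, 5 of the 8 neuronal markers were positive. The lowest neuronal sums of the series were in R24h_C3, R24h_C1 and R24h_T2, with 625, 1045 and 1057 FPKM. The highest microglial sums of the series were in R24h_C3 and R24h_C1, with 242 and 232.5 FPKM. R24h_T2 had endothelial and microglial sums of 15.4 and 146 FPKM, below the 44.4 and 188 FPKM of R24h_T1. R24h_T1, with the highest endothelial sum, had a member deviation of -0.02. R28d_T1 had 260 FPKM of Spp1 and an astrocyte sum of 1443 FPKM, with a member deviation of 0.09. The part of other cells in the member response was not tested.

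**Figure D5:**
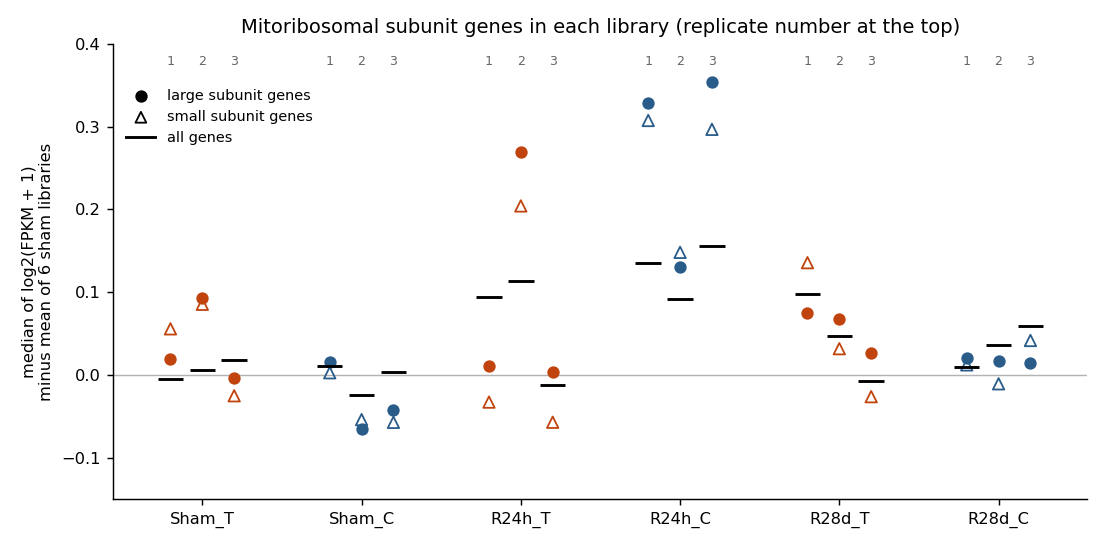
Median over the genes of log2(FPKM + 1) minus the mean of the 6 sham libraries, for large (filled circles) and small (open triangles) subunit genes and all genes (bars) in each library, with arm T in red and arm C in blue. R24h_C1, R24h_C3 and R24h_T2 stand above the rest, and the other libraries at 24 h and 28 d lie nearer to the sham libraries.

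Across the 18 libraries the 77 subunit genes varied together in part. The median Pearson correlation between pairs of genes was 0.456 as deposited and 0.235 after median-ratio scaling, over libraries that share depth, tissue makeup and scale. Pairs of other genes were not computed, so these values cannot be set against genes at large. Mrpl51 (r = 0.93), Mrpl13 (r = 0.924) and Mrps7 (r = 0.923) followed the mean of the other members most closely. Mrpl4 (r = -0.158), Mrps25 (r = -0.130), Mrps17 (r = -0.116), Mrpl41 (r = 0.02) and Mrps21 (r = 0.06) followed it least. The most abundant member, Mrpl41, was at 41.9, 27.4 and 29.0 FPKM in R24h_T, against 33.2, 31.2 and 29.7 FPKM in Sham_T, and at 37.4, 38.2 and 36.6 FPKM in R24h_C, against 34.6, 33.3 and 35.5 FPKM in Sham_C. It was high in R24h_T1, where most members were at their sham level.

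Members of known role were described whatever their values. In the stalk, Mrpl10 was called in arm C (0.33 ± 0.09, adjusted p = 0.0404), Mrpl12 was at 31.6, 22.4 and 29.0 FPKM in R24h_C, against 23.5, 22.1 and 19.6 FPKM in Sham_C (0.33 ± 0.15, adjusted p = 0.144), and Mrpl11 differed by 0.07 ± 0.11 (adjusted p = 0.679). Mrps12, a protein of the decoding site, was at 15.5, 12.7 and 16.6 FPKM in R24h_C, against 15.8, 13.7 and 11.8 FPKM in Sham_C, and the groups overlapped (adjusted p = 0.581). Mrps30 and Mrps18a, which sit in the large subunit despite their names, differed in arm C by 0.14 ± 0.11 and 0.15 ± 0.15, with adjusted p of 0.379 and 0.475. Among genes mutated in human mitochondrial translation disorders, Mrps7 and Mrps22 were called higher in arm C and over both arms, with 0.44 ± 0.11 for Mrps22 in arm C (adjusted p = 0.0337). Mrps2 (0.29, adjusted p = 0.0664), Mrps16 (0.31, adjusted p = 0.0725) and Mrpl44 (0.28, adjusted p = 0.136) lay above sham in arm C without overlap and did not pass, and Mrpl3 differed by 0.09 (adjusted p = 0.475). Mrps36 differed by 0.38 ± 0.09 in arm C (adjusted p = 0.0271).

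Genes that serve the mitochondrial ribosome were taken from lists chosen by role, and their counts stand beside the 19.3% of all genes called higher and 5.38% called lower over both arms, and 19.8% and 4.24% in arm C. Of 5 subunits with names outside the Mrpl and Mrps series (7 listed), all were positive in arm C with a median of 0.25, and 0 passed. Of 12 translation factors, 2 were higher over both arms, the elongation factor Gfm1 (0.40 ± 0.11, adjusted p = 0.0190) and the initiation factor Mtif2 (0.22 ± 0.07, adjusted p = 0.0446), and 2 in arm C, Gfm1 and the recycling factor Mrrf (0.34 ± 0.10, adjusted p = 0.0462). Of 25 assembly and rRNA modification factors tested, 3 were higher over both arms (Ddx28, Noa1 and Rbfa) and 1 was lower (Mettl17). In arm C 4 of 24 were higher, among them Tfb1m, a methyltransferase of the small subunit rRNA, with 0.49 ± 0.11 (adjusted p = 0.0268). Of 10 factors for mitochondrial DNA and transcription, 1 was higher over both arms, Twnk (0.27 ± 0.09, adjusted p = 0.0426), whose model overlaps that of Mrpl43. In arm C 2 of 10 were higher, Twnk and Tfam, which packages that DNA (0.41 ± 0.10, adjusted p = 0.0303). Of 9 nuclear regulators, Myc was higher with 1.30 ± 0.16 (adjusted p = 0.000718) over both arms and the coactivator Ppargc1b lower with -0.28 ± 0.08 (adjusted p = 0.0265). Nrf1, Gabpa and Yy1 did not pass, with 0.17, 0.29 and 0.17.

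The mRNAs that these ribosomes translate had lower values at 24 h. All 13 protein-coding genes of the mitochondrial genome had negative differences over both arms, with a median of -0.30, and 4 passed as lower: mt-Co1 (-0.51 ± 0.13, adjusted p = 0.0133), mt-Co2, mt-Co3 and mt-Nd1. In arm C 2 passed, mt-Co1 (-0.52 ± 0.10, adjusted p = 0.0176) and mt-Nd5. All 13 were negative in each arm at 24 h, with a median of -0.25 in arm C and of -0.37 in arm T, where 0 passed. The lower values were not confined to 24 h. At 28 d against sham over both arms all 13 were again negative, with a median of -0.22, and 0 passed. The level of mt-Co1 was 14030, 17160 and 24710 FPKM in R24h_T, against 27070, 27330 and 23020 FPKM in Sham_T, and 16930, 17220 and 17850 FPKM in R24h_C, against 23860, 25210 and 25380 FPKM in Sham_C. Neither mitochondrial rRNA passed, with 0.23 for mt-Rnr1 (adjusted p = 0.502) and 0.20 for mt-Rnr2 (adjusted p = 0.544) over both arms. mt-Rnr1 was at 2961, 4055 and 3911 FPKM in R24h_T, against 4509, 3786 and 4032 FPKM in Sham_T, and at 6359, 3237 and 9053 FPKM in R24h_C, against 4120, 4016 and 2928 FPKM in Sham_C, so that R24h_C1 and R24h_C3 were again the highest libraries. Libraries were poly(A) selected, and the rRNA values rest on what passed that step. Scaling without the mitochondrial genes left 14 entries higher over both arms (16.9% of all genes) and 15 in arm C (15.3%).

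The promoter letters were also counted by call. Among the 18 subunit genes with a window that were called in arm C at 24 h, 38.9% held the ETS letters, against 36.0% of the 50 that were not called. The NRF1 letters were in 22.2% against 18%, the YY1 letters in 5.56% against 20% and the SP1 letters in 44.4% against 50.0%. One gene of the 18 held the YY1 letters. These shares are descriptions and were not tested.

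At 28 d no member passed the test against sham. Over both arms, 0 entries were higher and 0 lower at 28 d than after sham surgery, with 6 at an unadjusted p under 0.05, while 0.00702% of all genes tested were higher and 0% lower. The median was 0.04, as over all genes tested, and the libraries lay apart without overlap for 0 entries, against 1.19% (higher) and 0.274% (lower) of all genes. In the R28d_C against Sham_C fit 0 entries passed, with 4 at an unadjusted p under 0.05 (0.0224% of all genes higher, 0.0298% lower), and in R28d_T against Sham_T 0 passed, again with 4 at an unadjusted p under 0.05 (0.00738% in each direction). R28d_C lay above Sham_C without overlap for 13 entries (12.6% of all genes) and below for 2 (6.08%), and R28d_T lay above Sham_T for 4 (10.9%) and below for 3 (5.43%). Mrps6 was at 13.9, 9.56 and 9.72 FPKM in R28d_T, against 7.99, 7.96 and 7.03 FPKM in Sham_T, and at 6.96, 10.0 and 8.19 FPKM in R28d_C, against 8.17, 7.35 and 6.65 FPKM in Sham_C. It lay above sham in arm T without overlap and overlapped in arm C, with a log2 difference over both arms of 0.31 ± 0.11 (adjusted p = 0.192). Mrpl45 was at 8.34, 7.51 and 7.60 FPKM in R28d_T and at 8.59, 8.04 and 7.58 FPKM in R28d_C, just above the sham libraries of each arm, with 0.14 ± 0.05 (adjusted p = 0.164). Without R28d_T3, a library with 10.6 FPKM of Spp1, Mrpl24 and Mrpl27 were called higher (7.01% of all genes tested). R28d_C1 stood nearer still to the sham libraries, with 4.97 FPKM of Spp1 and an endothelial sum of 3.46 FPKM, and without it limma called 0 entries, with 6 at an unadjusted p under 0.05, while 3.26% of all genes were higher.

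Set directly against 24 h over both arms, 28 d gave 0 calls, with 23 entries at an unadjusted p under 0.05 and a smallest adjusted p of 0.0529, for Mrps18b, while 1.47% of all 14756 genes tested were higher and 1.5% lower. The median was -0.12, against -0.06 over all genes tested, and 65 of the 79 were negative. With median-ratio scaling the median was -0.05, against 0.00, and 54 were negative. Mrps6 differed by -0.99 ± 0.26 (adjusted p = 0.0619), Mrpl20 by -0.47 ± 0.12 (adjusted p = 0.0591) and Mrpl45 by -0.28 ± 0.07 (adjusted p = 0.0597). The libraries at 28 d lay below those at 24 h without overlap for 3 entries, against 1.23% of all genes tested, and above for 0, against 1.44%. Without R24h_T3, 12 entries were called lower (13.1% of all genes tested). With all 18 libraries in a single fit, 14 were lower (11.4%) and 1, Mrps25, was higher (5.82%), and under either scaling 1, Mrps18b, was lower (1.77% with the median ratio and 1.34% without mitochondrial genes).

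The effect of the hairpin was compared at each stage. In sham cortex, 0 entries differed between Sham_T and Sham_C, with 10 at an unadjusted p under 0.05 (0.0824% of all genes higher, 0.127% lower). The median was 0.05, against 0.01, and Sham_T lay above Sham_C without overlap for 16 entries (20.3% of them), against 10.6% of all genes tested, and below for 1, against 8.85%. Mrps21 had the largest difference, with 21.0, 24.5 and 20.04 FPKM in Sham_T, against 11.7, 9.63 and 16.9 FPKM in Sham_C (0.76 ± 0.19, adjusted p = 0.199). At 24 h, 0 entries differed between R24h_T and R24h_C, with 5 at an unadjusted p under 0.05 and 0% of all genes called. The median was -0.175, against -0.08, and 74 of the 79 were negative. Under either scaling the median was -0.11, against -0.01, and 64 were negative. As deposited, there were 7 below without overlap (8.78% of all genes tested) and 0 above (3.23%). Mrpl52 had the largest difference, with 5.78, 7.60 and 6.50 FPKM in R24h_T, against 11.5, 7.45 and 13.5 FPKM in R24h_C (-0.60 ± 0.22, adjusted p = 0.668). At 28 d, 0 entries differed between R28d_T and R28d_C, with 2 at an unadjusted p under 0.05 and 0% of all genes called, and the median was 0.03, against 0.02. R28d_T lay above R28d_C without overlap for 7 entries (3.37% of all genes) and below for 1 (2.72%).

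Whether the response at 24 h differed between the arms was tested directly. The response of arm T minus that of arm C passed in 0 entries, with 15 at an unadjusted p under 0.05, a smallest adjusted p of 0.415 and 0% of all genes called. How many of all genes lay at that unadjusted cut was not counted, so the 15 do not set the members apart. The median was -0.24, against -0.09 over all genes tested, and 75 of the 79 were negative. With median-ratio scaling the median was -0.17, against -0.016, and 66 were negative. Scaled without mitochondrial genes it was -0.153, against -0.0007, and 64 were negative. As deposited, Mrps21 had the largest value with -1.06 ± 0.30, then Mrpl52 with -0.80 ± 0.28 and Mrpl24 with -0.75 ± 0.21, all with an adjusted p of 0.415. For Mrps21 most of this value came from the sham arms, which differed by 0.76, since R24h_T and R24h_C differed by -0.30 ± 0.22 (adjusted p = 0.705). It was at 16.0, 11.4 and 16.9 FPKM in R24h_T, against 14.1, 20.1 and 20.9 FPKM in R24h_C. The 21 calls in arm C and the 0 in arm T thus do not show that the arms differ.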

How the data were processed

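FPKM per gene in 18 libraries were deposited. The submitters' processing notes name HISAT, StringTie, edgeR and build mm9, without the role of each, for the FPKM that the authors deposited. Per the labels' protocols, RNA was poly(A) selected, with stranded paired-end libraries. FPKM hold no read totals, so the depth is unknown and no counting interval is given. FPKM + 1 was taken to log2 and tested with limma 3.58.1 (trend, empirical Bayes, two-sided) in R 4.3.3, on the libraries of the groups compared, with arm as a term over both arms. A gene was tested if 3 of those libraries reached 1 FPKM. Benjamini-Hochberg adjustment ran over all genes tested, with a threshold of 0.05. The code was tested on simulated data. Summaries and plots used Python 3.11.15, pandas 2.3.3 and matplotlib 3.10.9. As alternatives, 0.1 was added in place of 1, the filter was dropped, values were scaled by median ratios or without mitochondrial genes, the replicate number entered as a block, 1 fit took all 18 libraries, and single libraries were omitted. Whether each library is a mouse of its own is not stated, and p then covers only spread from library to library, which may be technical. Replicate numbers were not treated as pairs in the main fits.

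The members and lists were chosen with earlier results of these data known. Named genes were, at 24 h over both arms, 8 in each direction (calls without overlap by size, then the smallest adjusted p), up to 6 calls by p in each other comparison, genes of set roles, and the 3 highest and 3 lowest mean levels. Other members named singly were chosen after their values were seen. GENCODE M21 (GRCm38) served only to find overlapping gene models, where 43 of the 82 entries overlap another measured gene, and RefSeq (GRCm38.p6) gave the promoters. No coordinates of the deposited build were used.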

Additional observations from a re-analysis of the deposited data

Results flagged for a closer look

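Mrps21, a small subunit protein, was picked out because its arms moved in opposite directions at 28 d. It had 18.4, 12.0 and 13.3 FPKM in R28d_T, all below the 21.0, 24.5 and 20.04 FPKM of Sham_T, with a log2 difference of -0.569. In arm C it was at 17.3, 20.9 and 18.4 FPKM in R28d_C, all above the 11.7, 9.63 and 16.9 FPKM of Sham_C, with a log2 difference of 0.56. Neither difference passed on its own (adjusted p = 0.387 in arm T and 0.372 in arm C), and the difference between the arms' responses at 28 d was not tested. The sham arms themselves differed by 0.76, while the arms overlapped at 28 d, with 12.0 to 18.4 FPKM in R28d_T against 17.3 to 20.9 FPKM in R28d_C. Only members were searched for such opposite movement, and its share among all genes was not counted.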

How the results depend on the processing

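Mrps6, Mrpl45, Mrpl20 and Mrpl39 were called at 24 h over both arms under all 18 alternatives, and 0 of the 21 calls of arm C were kept under all 12. Over both arms, 15 entries were called higher, and this became 6 without a filter (6.05% of all genes), 5 with median-ratio scaling (12.7%; 2 lower, 9.14%) and 5 to 22 leaving out 1 library (22 without R24h_T3, 8 or fewer without R24h_C1, R24h_C3, R24h_T2 or any Sham_C library). In arm C, 21 became 6 without a filter (4.5%), 9 with median-ratio scaling (11.6%), 30 with all 18 libraries in 1 fit (21.4%) and 0 to 44 leaving out 1 library. The replicate block gave 10 over both arms (14.9%) and 9 in arm C (12.1%), and correlations of same-numbered libraries ran between -0.424 and 0.214. Libraries of different numbers were not set beside them, so these values cannot decide whether the numbers pair libraries. In arm T, all 18 libraries in 1 fit or leaving out R24h_T3 gave 1 higher (Mrpl45), leaving out 1 library gave 0 to 1. Leaving out 1 library at 28 d against sham gave 0 to 2 higher. At 28 d against 24 h, 14 were lower and 1 higher (Mrps25) with all 18 libraries in 1 fit, 1 lower (Mrps18b) under either scaling, and 0 to 12 lower leaving out 1 library (1 without R28d_T1, Mrps6).

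The median of the members at 24 h was 0.0752 over both arms and 0.16 in arm C with median-ratio scaling. Leaving out 1 library, it ran between -0.0623 and 0.0992 in arm T, between -0.29 and -0.12 for R24h_T against R24h_C and between -0.35 and -0.18 for the difference of the responses, lowest without R24h_T2 each time. The last was -0.153 scaled without mitochondrial genes. Signs reversed at 24 h over both arms, each far from the threshold, for Mrpl11 (-0.049) and Mrps18a (-0.059) with median-ratio scaling, and, leaving out 1 library, where the values ran between -0.035 and 0.09 for Mrps18a, -0.076 and 0.031 for Mrpl48, -0.129 and 0.003 for Mrps24, -0.028 and 0.009 for Mrps9, -0.135 and 0.007 for Mrpl23-ps1 and -0.094 and 0.07 for Mrps12. The cause was not tested. With 3 libraries a group and no read totals, small differences of low genes such as Mrpl33 are not resolved.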
